A study of Gallus gallus with 15 samples.

Results

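Breast muscle of Jingyuan chickens at 180 days of age was compared with breast muscle at 42 days by RNA sequencing. The comparison rests on 10 of the 15 libraries of the series, which were chosen by age alone: 5 birds of 180 days and 5 birds of 42 days, each library from the breast muscle of a single bird. All birds were untreated Jingyuan hens, a Chinese indigenous breed, fed and watered freely under the same conditions. The 180-day group was at market age, with a labelled weight of 2.03 ± 0.09 kg, and the 42-day group was at the start of the breeding period, with a labelled weight of 0.422 ± 0.03 kg (the labels do not say what the spread is). The remaining 5 birds, of 126 days (sexual maturity, 1.68 ± 0.14 kg), are used only for levels given beside those of the 180-day and 42-day birds. Birds of different ages are different animals, so that age and anything else that differed between the slaughter groups cannot be told apart.

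The breast muscle of a chicken is built almost wholly of fast-twitch, glycolytic fibres. After hatching, these fibres grow by enlargement: satellite cells lying under the basement membrane divide, fuse into the fibres and add nuclei, while fibroblasts lay down the collagens, laminins and proteoglycans of the connective tissue around each fibre. In a grown fibre, chaperones such as the small heat shock proteins attend to the contractile filaments, and myoglobin, which binds oxygen and reddens muscle, is scarce in white fibres.

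Expression is given as FPKM, the fragments assigned to a transcript, normalised for its length and for the fragments mapped in the library. Read counts cannot be read from FPKM, and the depth and counting error of each library are unknown. The FPKM of a bird summed to between 437876 and 481698 at 180 days, against 413638 to 469268 at 42 days. The labels give breast as the tissue but also call the samples primary cells of a myoblast line. Against that, 8 markers of skeletal muscle fibres, among them TNNT3, TNNI2, MYL1 and TTN, summed to 23000 to 33600 FPKM at 180 days and to 15800 to 35600 FPKM at 42 days, while 6 markers of satellite cells and myoblasts summed to 68.3 to 145 FPKM at 180 days and to 92.6 to 268 FPKM at 42 days. The libraries are therefore called breast muscle here. The other fibre markers listed, such as ACTA1 and CKM, were not analysed here.

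One 180-day bird stood apart. Bird 1 correlated with the other birds of its age with a median r of 0.843, across genes on the log2 scale, where the others reached 0.951 to 0.956. Its T cell markers summed to 209 FPKM, against 11.4 to 16.5 FPKM in the other 180-day birds and 6.31 to 16.3 FPKM at 42 days. B and plasma cell markers summed to 607 FPKM in this bird, against 18.6 to 35.6 FPKM in the other 180-day birds and 8.13 to 27.3 FPKM at 42 days. It was the library richest in leukocyte transcripts in each of the 4 leukocyte lists, and 814 genes were at least 4-fold above its 4 age mates, a step that 1 to 8 genes made in each of those mates. The comparison was therefore also run without this bird, as the 9-bird comparison. Every gene named below as called with 10 birds was called in the same direction with 9 birds, and 9-bird values are given where a call or a list's count differs. A 42-day bird, bird 5, also stood somewhat apart, with a median r of 0.901 against 0.941 to 0.945 in its mates and with the lowest sum of fibre markers (15800 FPKM).

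**Figure D1:**
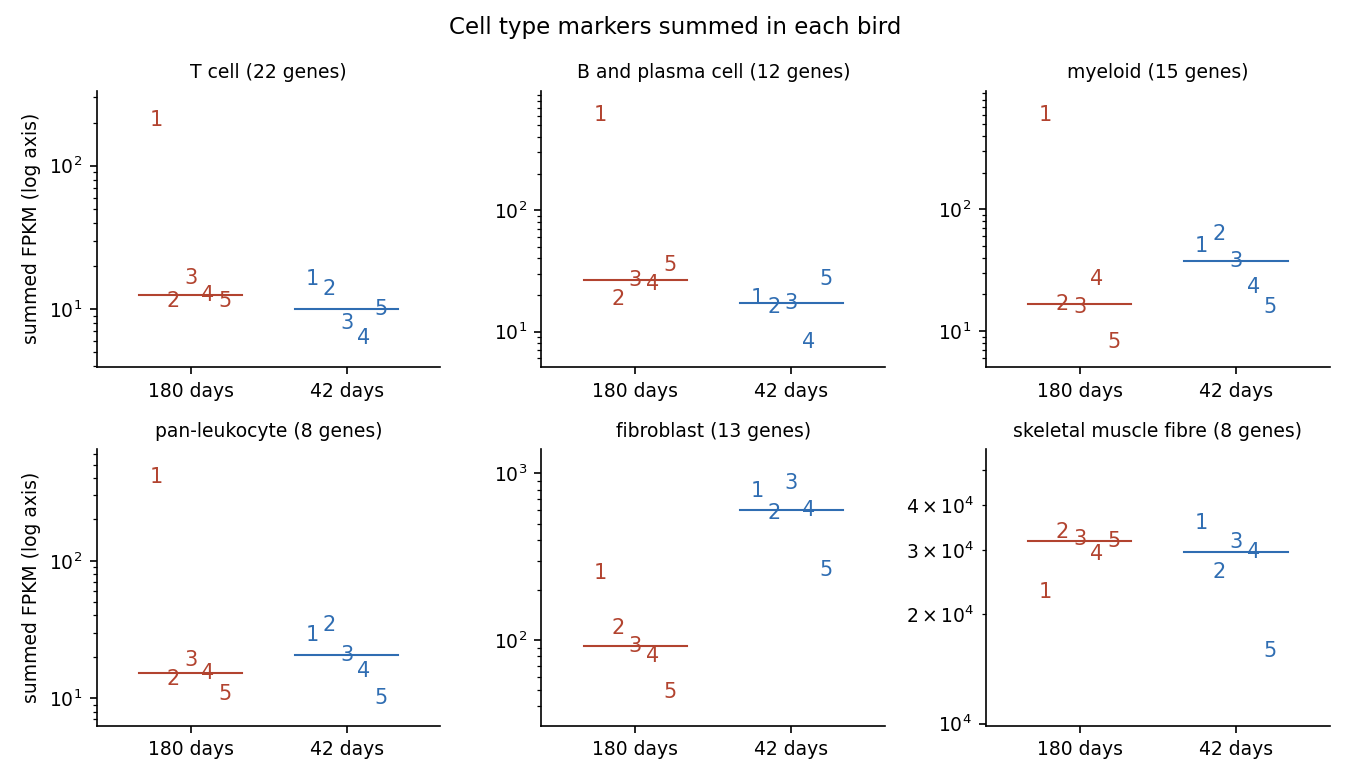
Summed FPKM of cell type markers in each bird (log axes), 180 days left and 42 days right, with the bird's number as the symbol and a line at the median. Bird 1 of 180 days lies far above every other bird in the 4 leukocyte panels (209 FPKM for T cells, 607 FPKM for B and plasma cells), while fibroblast markers lay between 48.9 and 253 FPKM at 180 days and between 263 and 877 FPKM at 42 days.

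Far more genes were lower than higher at 180 days. A differentially expressed gene (DEG) had an adjusted p under 0.05 (limma on log2(FPKM + 0.1), Benjamini-Hochberg over all genes tested) and a log2 fold change of 1 or more in size, 180 over 42 days. Of 11692 genes that averaged 0.5 FPKM or more, 342 (2.93%) were DEGs, 54 higher (0.462%) and 288 lower (2.46%) at 180 days. Fold changes on this scale understate the change of genes with low FPKM. The FPKM of the ages did not overlap in 280 of these DEGs, against 5.66% of all genes tested, which is not an independent measure because both use the same values. Over all genes tested the log2 fold changes had a median of −0.13. Without overlap 141 genes (1.21%) were higher and 521 (4.46%) lower with 10 birds, and 234 (2.0%) were higher and 1443 (12.3%) lower with 9 birds.

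Without the leukocyte-rich bird the number of DEGs was 781 (6.68%), 86 higher (0.736%) and 695 lower (5.94%). The filter set on the 10 birds was kept here, so that genes such as SMC2 passed it only through the bird left out. Of the 342 DEGs, 337 were called in the same direction in both comparisons, all 54 higher ones and 283 lower ones, and another 32 higher and 412 lower genes were called only without this bird. The excess of lower genes depended on scaling in the 9 birds: after quantile normalization 152 genes were higher and 254 lower, and in the 10 birds 54 were higher and 176 lower. Over all genes the median after quantile normalization was 0.00 in the 10 birds and 0.02 in the 9 birds, so that single genes below are read against shifts of −0.13 with 10 birds and −0.23 with 9 birds.

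**Figure D2:**
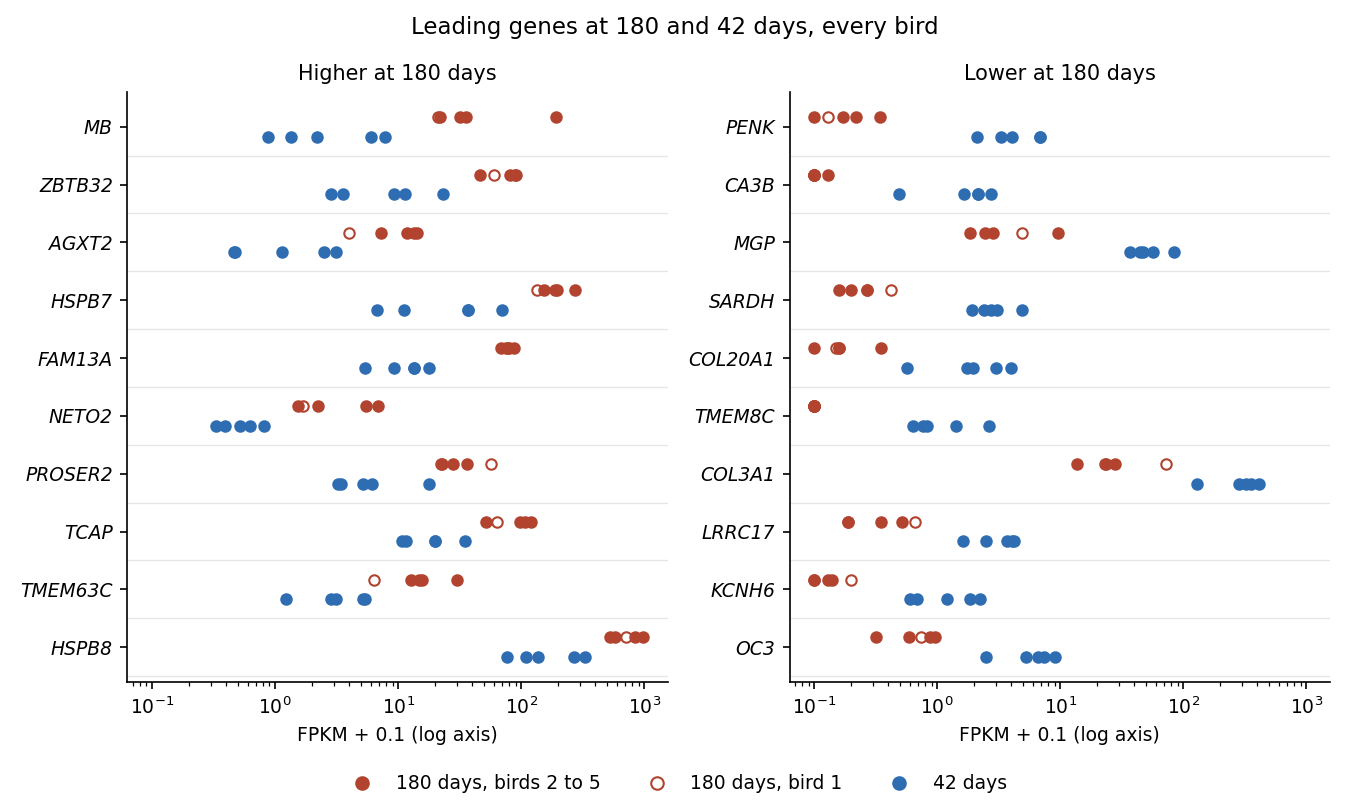
FPKM + 0.1 on a log axis of the 10 genes with the largest rise (left) and the 10 with the largest fall (right). They were taken from DEGs with a gene symbol whose ages did not overlap. Each point is 1 bird, with 180 days above 42 days in each row and bird 1 of 180 days drawn hollow. In every row all 5 points of 180 days lie on one side of the 5 points of 42 days, with or without the hollow point, as the choice of these genes required. Among the falls, CA3B, COL20A1, KCNH6, LRRC17, PENK, SARDH and TMEM8C averaged under 0.5 FPKM at 180 days. They passed the filter of 0.5 FPKM through the 42-day birds alone.

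Of the lists examined, those of the connective tissue held the most genes that fell. Of 14 fibrillar and basement membrane collagens tested, 9 fell and 0 rose at 180 days (all genes: 2.46% fell), with a median log2 fold change of −1.77 against −0.13 over all genes. COL3A1, which forms the fine reticular fibrils of soft tissue, had 71.7, 27.9, 23.0, 23.6 and 13.7 FPKM at 180 days, against 352, 282, 409, 321 and 128 FPKM at 42 days. The ages did not overlap, and the log2 fold change was −3.35 ± 0.41 (SE, adjusted p = 0.0021, limma). Bird 1 was the highest of its age, and without it the value was −3.70 (adjusted p = 0.00119).

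The chains of type I collagen, the main fibrillar collagen, fell in parallel. COL1A2 had 27.9, 10.02, 7.27, 7.05 and 5.55 FPKM at 180 days, against 104, 56.9, 153, 75.1 and 40.9 FPKM at 42 days, a log2 fold change of −3.0 ± 0.44 (limma: adjusted p = 0.00501). COL1A1 had 19.7, 6.74, 3.43, 3.97 and 2.24 FPKM at 180 days, against 52.5, 48.7, 55.0, 30.5 and 16.7 FPKM at 42 days. For COL1A1 the ages overlapped through bird 1 of 180 days and bird 5 of 42 days, and the call (log2 fold change −2.79, adjusted p = 0.0128, limma) was lost when only the highest of its 3 entries was used in place of their sum (adjusted p = 0.412). COL5A2, a chain of the type V collagen that nucleates those fibrils, fell by 2.19 on the log2 scale (limma: adjusted p = 0.00575), and the minor collagen COL20A1 had 0 to 0.25 FPKM at 180 days, against 0.47 to 3.86 FPKM at 42 days. COL20A1 passed the filter of 0.5 FPKM through the 42-day birds alone.

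Several genes of the basement membrane that ensheathes each fibre fell as well. COL4A1 and COL4A2, the chains of its collagen network, had medians of 29.3 and 30.1 FPKM at 180 days, against 122 and 116 FPKM at 42 days. LAMB1 and LAMC1, laminin chains, fell by 2.36 and 1.38 on the log2 scale, and LAMA2, the laminin chain of mature muscle, fell by 1.77 (adjusted p = 0.0028, 0.00528 and 0.00575, limma). The ages did not overlap for these 5 genes. The linkers NID1 and NID2 and the perlecan gene HSPG2 were called lower as well, NID1 with an adjusted p of 0.0498. Of all 10 laminins, nidogens and perlecan tested, a group looked up after values were seen, 7 were lower (all genes: 2.46% lower). LAMA3, LAMB2 and LAMA5 were not called (log2 fold changes −0.31, −0.18 and 0.07). The 3 chains of collagen VI, a microfibril of the fibre surface, missed the threshold in the 10 birds (adjusted p between 0.107 and 0.155, limma) and passed it in the 9 birds, where COL6A1 had a log2 fold change of −2.11 (limma: adjusted p = 0.0139).

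Among 34 matrix glycoproteins, proteoglycans and collagen-processing enzymes, 17 fell and 0 rose (all genes: 2.46% fell), with a median log2 fold change of −1.39. ELN, elastin, had 1.40, 1.80, 1.64, 2.41 and 0.690 FPKM at 180 days, against 18.1, 16.6, 11.6, 6.66 and 5.61 FPKM at 42 days, a log2 fold change of −2.75 ± 0.39 (limma: adjusted p = 0.0039). SPARC, a collagen-binding glycoprotein, had a median of 30.1 FPKM at 180 days, against 184 FPKM at 42 days. OGN, a small leucine-rich proteoglycan, had 12.6, 9.76, 7.61, 5.70 and 2.67 FPKM at 180 days, against 48.1, 49.5, 58.2, 29.1 and 17.6 FPKM at 42 days. All 3 genes fell without overlap of the ages.

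Other matrix genes were called less firmly. POSTN, a matricellular protein of growing connective tissue, had 13.6, 2.47, 1.13, 5.16 and 6.50 FPKM at 180 days, against 28.4, 26.6, 44.4, 22.6 and 14.6 FPKM at 42 days (log2 fold change −2.57, adjusted p = 0.0221, limma), and DPT, which aids collagen fibril assembly, fell by 2.39 (adjusted p = 0.0498). POSTN lost its call when any of 5 single birds was left out (adjusted p up to 0.0648, without 180-day bird 2) and DPT when any of 7 was (up to 0.12, without 180-day bird 3). The count of 17 itself was 7 without 42-day bird 1 or under quantile normalization, and 20 without 180-day bird 1 (all genes: 5.94% lower). The enzymes that hydroxylate and cross-link collagen were not called with 10 birds (P4HA1, P4HA2, P4HA3, PLOD1, PLOD2, LOX, LOXL1 and LOXL2, of which P4HA3 was lower in the 9 birds), while SERPINH1, the collagen chaperone, fell by 1.40 on the log2 scale (limma: adjusted p = 0.0429).

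MGP, matrix Gla protein, an inhibitor of calcification made in connective tissue, was among the genes with the largest falls. It had 4.82, 1.76, 2.35, 9.48 and 2.76 FPKM at 180 days, against 84.0, 56.0, 44.7, 36.7 and 46.5 FPKM at 42 days, a log2 fold change of −3.83 ± 0.40 (limma: adjusted p = 0.00105). PENK, which encodes the precursor of the enkephalin opioid peptides, had the largest fall on the scale used among DEGs with a gene symbol and no overlap. It had 0.03, 0.07, 0, 0.24 and 0.12 FPKM at 180 days, against 6.78, 3.97, 6.78, 3.18 and 2.02 FPKM at 42 days (adjusted p = 0.000733). PENK averaged 0.092 FPKM at 180 days, so that it passed the filter of 0.5 FPKM through the 42-day birds alone. Both genes kept their calls whichever single bird was left out, but the order turned with the pseudocount: with 1 in place of 0.1, MGP and COL3A1 fell by 3.50 and 3.30 on the log2 scale and PENK by 2.26.

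Fibroblast markers moved with these genes. Of 12 tested, 6 were called lower with 10 birds and 10 with 9 birds (all genes: 2.46% and 5.94% lower). Together 13 markers summed to 48.9 to 253 FPKM at 180 days against 263 to 877 FPKM at 42 days. However, 7 of these markers also stand among the collagens and matrix genes above. PDGFRA, the receptor that defines fibroblasts and their progenitors in muscle of other animals, had 7.16, 2.07, 1.42, 1.84 and 0.680 FPKM at 180 days, against 11.97, 10.3, 7.79, 5.27 and 3.73 FPKM at 42 days. PDGFRA was called in the 9 birds only. Under quantile normalization 3 of the 12 fibroblast markers were called lower. The part of fibroblast number in the matrix values was not tested, and in bulk tissue fewer cells of a type and less RNA per cell cannot be told apart.

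**Figure D3:**
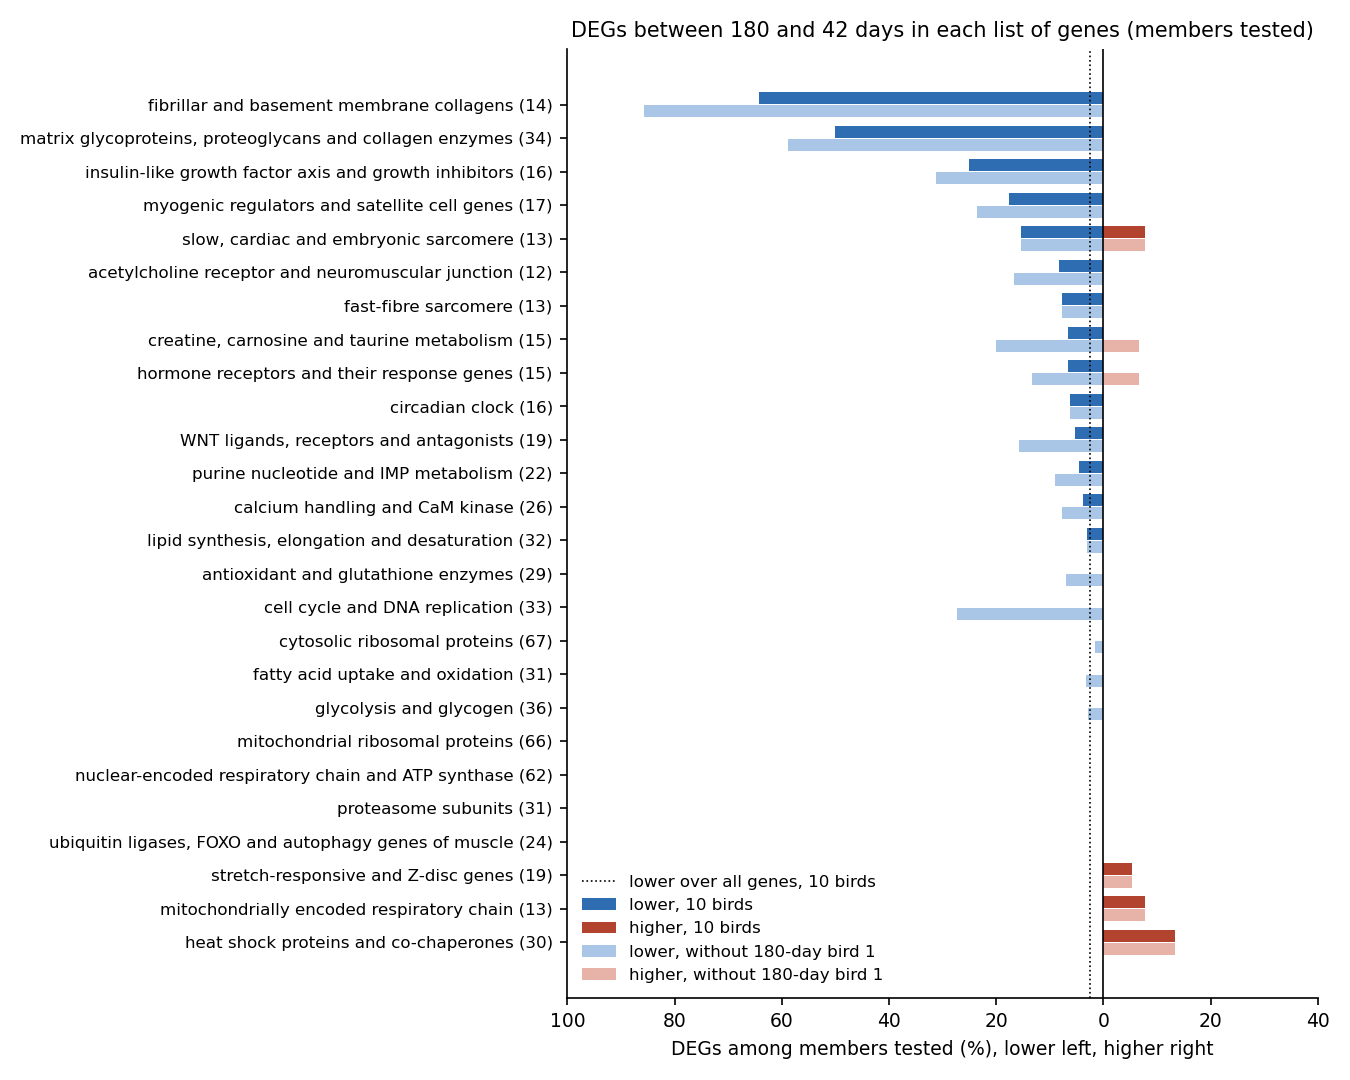
Share of the tested members of each pathway list (marker lists are not drawn) (number in brackets) that were DEGs between 180 and 42 days, lower to the left in blue and higher to the right in red, with the 10 birds in dark and without 180-day bird 1 in light colour. The dotted line marks the 2.46% of all genes that were lower with 10 birds; collagens (9 of 14) and other matrix genes (17 of 34) lie farthest to the left of the lists drawn, and the heat shock list (4 of 30) farthest to the right.

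Some genes of muscle formation were lower. Of 17 myogenic regulators and satellite cell genes, 3 fell (all genes: 2.46% fell) and 0 rose, with a median log2 fold change of −0.69. SPRY1 was a further lower gene with 9 birds. TMEM8C, the older symbol of the myomaker gene, whose product fuses myoblasts into fibres, was listed at 0 in all 5 birds of 180 days. It had 2.52, 0.720, 1.32, 0.540 and 0.670 FPKM at 42 days (adjusted p = 0.00528, limma), and passed the filter of 0.5 FPKM through these birds alone. MEGF10, a receptor that keeps satellite cells proliferating in the mouse, had 0.470, 1.00, 0.520, 0.540 and 0.550 FPKM at 180 days, against 3.91, 5.34, 3.74, 3.01 and 3.22 FPKM at 42 days. MYF5, a transcription factor of committed satellite cells, fell by 1.78 on the log2 scale (limma: adjusted p = 0.0182) and lost its call under quantile normalization and with the highest entry only (adjusted p up to 0.143).

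The best known members did not pass the test. MYOD1, the master regulator of the lineage, had medians of 107 FPKM at 180 days and 125 FPKM at 42 days, and the log2 fold change was −0.31 ± 0.31 (limma: adjusted p = 0.667). PAX7, the marker of satellite cells, had 1.37 to 3.18 FPKM at 180 days, against 3.25 to 6.60 FPKM at 42 days, so that the ages did not overlap, with a log2 fold change of −0.87 (limma: adjusted p = 0.113). MYOG, the factor of differentiation, stood at −1.94 (adjusted p = 0.0605).

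Of 12 genes of the neuromuscular junction, CHRNA1 alone was called (all genes: 2.46% lower). It encodes the ligand-binding alpha subunit of the acetylcholine receptor of muscle, and it had 0.930, 1.94, 1.20, 1.34 and 1.07 FPKM at 180 days, against 6.60, 5.76, 4.81, 3.52 and 6.85 FPKM at 42 days. The log2 fold change was −2.01 ± 0.26 (adjusted p = 0.00266, limma), and the adjusted p was 0.0839 when entries were not summed but the highest kept. CHRNG, the fetal subunit, had a median of 3.28 FPKM at 180 days against 3.80 FPKM at 42 days (adjusted p = 0.397), and NRG1, a nerve-derived signal that raises receptor synthesis, was called lower only in the 9 birds (−2.12, adjusted p = 0.0299).

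In the insulin-like growth factor axis, 4 of 16 genes fell (all genes: 2.46% fell) and 0 rose, and IGFBP4 was a further lower gene with 9 birds. IGF2BP1 and IGF2BP3, RNA-binding proteins of embryonic and growing tissue, fell by 2.14 and 2.15 on the log2 scale (limma: adjusted p = 0.0164 and 0.0356), and IGFBP3, which carries the growth factors in blood, fell by 1.17 (adjusted p = 0.0206). IGF2BP1 had 1.06, 1.70, 1.37, 1.18 and 1.42 FPKM at 180 days, against 2.39, 8.41, 3.40, 10.1 and 12.9 FPKM at 42 days, without overlap. FST, follistatin, which binds and blocks myostatin, fell by 2.01 (adjusted p = 0.0345). These calls were fragile: without 42-day bird 2, 0 of the 4 passed, with adjusted p of up to 0.102 for IGF2BP3. Myostatin itself (MSTN), the inhibitor of muscle growth, ranged from 6.70 to 26.9 FPKM at 180 days and from 3.10 to 60.8 FPKM at 42 days, and the receptor IGF1R had a log2 fold change of 0.01 ± 0.31 (limma: adjusted p = 0.991).

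Fast-fibre sarcomere genes showed 1 DEG (all genes: 2.93% were DEGs), though of 25 genes listed only 14 were analysed here. Of 13 tested 12 did not pass the test, with log2 fold changes between −0.73 and 0.56, and MYL1, the fast alkali light chain, had medians of 12101 FPKM at 180 days and 12553 FPKM at 42 days. The exception was TPM2, beta-tropomyosin, an actin-binding isoform made in embryonic breast muscle. It had 15.5, 13.2, 13.7, 15.1 and 10.8 FPKM at 180 days, against 77.7, 177, 251, 231 and 19.3 FPKM at 42 days, a log2 fold change of −3.0 ± 0.58 (limma: adjusted p = 0.0154). Bird 5 of 42 days, which had the fewest fibre transcripts, was closest to the 180-day range. TPM1, the alpha-tropomyosin gene, had a log2 fold change of 0.21 (limma: adjusted p = 0.703).

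The list of slow, cardiac and embryonic sarcomere genes also holds MB, myoglobin, which is no sarcomere protein. Of its 13 genes tested, 2 fell and 1, MB, rose (all genes: 2.46% fell and 0.462% rose). ACTC1, the cardiac actin that is also made in immature skeletal muscle, had 3.12, 1.40, 2.65, 2.77 and 22.4 FPKM at 180 days, against 69.7, 32.2, 52.0, 22.1 and 14.6 FPKM at 42 days (log2 fold change −3.09, adjusted p = 0.0212, limma). It lost the call when any of 6 birds was left out, with an adjusted p of up to 0.0575 without 180-day bird 2. Bird 5 of 180 days overlapped the younger birds in this gene. MYBPC3, the cardiac myosin-binding protein C, had 0.05 to 0.09 FPKM at 180 days, against 0.87 to 3.09 FPKM at 42 days (adjusted p = 0.00542).

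Among DEGs with a gene symbol and no overlap, the gene with the largest rise belonged to that same list. MB, myoglobin, had 21.1, 21.6, 31.6, 35.4 and 193 FPKM at 180 days, against 7.69, 5.95, 1.24, 2.08 and 0.770 FPKM at 42 days. The log2 fold change was 3.93 ± 0.70 (adjusted p = 0.0101, limma), and the lowest 180-day bird was above the highest 42-day bird. Bird 5 of 180 days was far above its mates in MB, and without it the log2 fold change was 3.36 and the gene was still called. The troponin TNNC1, of slow and cardiac muscle, stood at 0.79 (adjusted p = 0.0577), and the median of the list was −0.84.

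Small heat shock proteins stood out among the genes that rose. Of 30 heat shock proteins and co-chaperones, 4 rose (all genes: 0.462%) and 0 fell, with a median log2 fold change of 0.31. HSPB1, a chaperone of actin filaments, had 748, 640.2, 712, 678 and 699.7 FPKM at 180 days, against 183, 175, 413, 222 and 177 FPKM at 42 days. HSPB7, the cardiovascular family member that binds filamin C, had 135, 196, 152, 187 and 275 FPKM at 180 days, against 6.63, 11.03, 69.4, 36.8 and 36.7 FPKM at 42 days. HSPB8, which works with the co-chaperone BAG3, had 717, 977, 530.3, 579 and 837 FPKM at 180 days, against 76.1, 136, 332, 108 and 269.6 FPKM at 42 days. None of the 3 overlapped between the ages, and the log2 fold changes were 1.66 ± 0.23, 2.97 ± 0.53 and 2.16 ± 0.37 (adjusted p = 0.0039, 0.0107 and 0.00839, limma).

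The fourth, HSPA2, a chaperone of the 70-kDa family, rose by 1.72 on the log2 scale (limma: adjusted p = 0.0362), with 976, 838, 1132, 1660 and 2059 FPKM at 180 days, against 169, 284, 864, 358 and 542 FPKM at 42 days. It lost its call when any of 6 birds was left out (adjusted p up to 0.1, without 42-day bird 2), and also without the filter, under quantile normalization, with all 3 ages in one fit and with the highest entry only (up to 0.149). HSPA2 has 1 entry, so that with the highest entry only its own values were unchanged, and the values of other genes in the fit differed. Other heat shock family members had negative values. CRYAB, alpha B-crystallin, the close relative of HSPB1, had medians of 81.0 FPKM at 180 days and 127 FPKM at 42 days, and the log2 fold change was −0.53 (limma: adjusted p = 0.25), and HSPB2 stood at −0.95 (adjusted p = 0.0942). The general chaperones HSPA8, HSPD1 and HSP90AA1 and the heat shock factors HSF1, HSF2 and HSF3 did not pass the test.

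TCAP, telethonin, which caps titin at the Z-disc, was the single DEG of 19 stretch-responsive and Z-disc genes (all genes: 0.462% higher). It had 63.3, 121, 108, 98.2 and 51.4 FPKM at 180 days, against 19.9, 34.6, 11.5, 19.9 and 10.6 FPKM at 42 days, a log2 fold change of 2.25 ± 0.34 (limma: adjusted p = 0.00501). The median of the list was 0.87, and its stretch-responsive members spread widely between birds: CSRP3, a Z-disc sensor, had 3.75 to 17.4 FPKM at 180 days and 0.11 to 18.6 FPKM at 42 days. Without 42-day bird 3, which had the highest HSPB1, HSPB7 and HSPB8 of its age, 4 of the 19 genes were called higher.

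Other genes with large rises had no common list. ZBTB32, a BTB zinc finger repressor of transcription, had 59.7, 91.1, 89.1, 80.8 and 45.8 FPKM at 180 days, against 2.74, 9.24, 3.48, 22.9 and 11.2 FPKM at 42 days (log2 fold change 3.23 ± 0.49, adjusted p = 0.00501, limma). FAM13A was uniform among the birds of 180 days, with 79.5, 86.9, 68.8, 77.6 and 75.8 FPKM at 180 days, against 5.27, 9.09, 17.8, 13.4 and 13.3 FPKM at 42 days. Its log2 fold change was 2.82 ± 0.27 (adjusted p = 0.000733). AGXT2, a mitochondrial aminotransferase of beta-aminoisobutyrate and methylated arginines, rose by 3.01 on the log2 scale (limma: adjusted p = 0.0147), with 3.86 to 14.2 FPKM at 180 days and 0.36 to 3.04 FPKM at 42 days.

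The rise of 3 further genes completed those named by size. NETO2, an auxiliary subunit of kainate receptors, stood at 2.53 on the log2 scale, PROSER2 at 2.44 and TMEM63C, of a family of osmosensitive channels, at 2.18 (adjusted p = 0.012, 0.01 and 0.0202, limma). None overlapped between the ages. NETO2 lost its call with the highest entry only (adjusted p = 0.0839), and TMEM63C when any of 4 birds was left out (adjusted p up to 0.0552, without 180-day bird 2).

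Energy metabolism showed few DEGs. Of 62 nuclear-encoded subunits of the respiratory chain and ATP synthase, 0 were called with 10 birds and 0 with 9 birds (median log2 fold change −0.08). Of the 13 subunits encoded by mitochondrial DNA, 12 had a positive fold change and 1 was called (all genes: 0.462% higher). This was ND2, of complex I, with 3822, 5901, 4023, 2758 and 2953 FPKM at 180 days, against 2207, 1548, 1957, 2165 and 1126 FPKM at 42 days (log2 fold change 1.10, adjusted p = 0.0377, limma). ND2 lost its call when any of 8 birds was left out (adjusted p up to 0.103, without 42-day bird 2).

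Glycolysis and glycogen genes (36 tested) and genes of fatty acid uptake and oxidation (31 tested) had 0 DEGs with 10 birds. GAPDH, the glycolytic enzyme, had 23362, 32762, 38632, 27501 and 26390 FPKM at 180 days, against 43346, 38165, 34421, 37027 and 52637 FPKM at 42 days (adjusted p = 0.33, limma). In these lists the 9 birds added ENO1, an enolase, and ANGPTL4, an inhibitor of lipoprotein lipase, both lower. Of 8 adipocyte markers tested 0 were called with 10 birds, and PNPLA2, the triglyceride lipase, was lower only in the 9 birds (−2.43, adjusted p = 0.0179). The defining adipocyte genes PLIN1 and CIDEC were below 0.5 FPKM on average and were not tested.

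Single enzymes of lipid, creatine and nucleotide metabolism fell clearly, as 1 of 32, 1 of 15 and 1 of 22 genes tested in their lists (all genes: 2.46% lower). HACD1, a dehydratase of very long chain fatty acid elongation that acts in muscle, was the DEG among 32 genes of lipid synthesis and had 17.2, 20.6, 21.5, 19.2 and 30.4 FPKM at 180 days, against 72.4, 55.3, 66.7, 74.8 and 45.0 FPKM at 42 days (log2 fold change −1.53 ± 0.20, adjusted p = 0.00266, limma). GAMT, which methylates guanidinoacetate to creatine, had 8.62, 9.47, 16.4, 10.4 and 13.4 FPKM at 180 days, against 41.2, 37.6, 30.0, 30.9 and 40.1 FPKM at 42 days (−1.65 ± 0.20, adjusted p = 0.00191). PRPS2, which makes the ribose donor of purines, fell by 1.96 (adjusted p = 0.00411). None of the 3 overlapped between the ages, and all 3 kept their calls whichever bird was left out. With 9 birds CKB and SLC6A6, of creatine and taurine metabolism, and ATIC, of purine synthesis, were lower too.

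SARDH, the mitochondrial sarcosine dehydrogenase, had 0.32, 0.06, 0.17, 0.17 and 0.10 FPKM at 180 days, against 4.77, 2.98, 2.29, 1.83 and 2.62 FPKM at 42 days, a log2 fold change of −3.51 (limma: adjusted p = 0.00105). CA3B, a carbonic anhydrase, was listed at 0 in 4 of the 5 birds of 180 days, against 0.390 to 2.65 FPKM at 42 days. SARDH and CA3B passed the filter of 0.5 FPKM through the 42-day birds alone. With a pseudocount of 1 the log2 fold change of SARDH was −1.70, and that of CA3B was −1.37 in place of −3.91. CKMT2, the mitochondrial creatine kinase of muscle, had 520, 554, 736, 456 and 829.7 FPKM at 180 days, against 387, 299.6, 245, 265 and 78.8 FPKM at 42 days. The ages did not overlap for CKMT2, which missed the threshold with 10 birds (log2 fold change 1.42, adjusted p = 0.0563, limma) and passed it with 9 (1.47, adjusted p = 0.0464). CARNS1, the carnosine synthase, had 11.5 to 24.6 FPKM at 180 days and 6.08 to 49.2 FPKM at 42 days (adjusted p = 0.849).

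Of 15 hormone receptors and response genes, THRA fell with 10 birds (all genes: 2.46% lower), and with 9 birds ESR2 was lower as well (all genes: 5.94%). THRA, a receptor for thyroid hormone, had 12.8, 10.8, 14.5, 13.1 and 11.9 FPKM at 180 days, against 32.5, 43.8, 23.9, 26.8 and 26.4 FPKM at 42 days (log2 fold change −1.24 ± 0.18, adjusted p = 0.00501, limma). CACNA1S, the voltage sensor of excitation-contraction coupling, fell by 1.25 with 10 birds (adjusted p = 0.0165), but with its highest entry only the value was −0.08 (adjusted p = 0.965).

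The circadian factor HLF fell by 1.24 on the log2 scale (limma: adjusted p = 0.0137), as 1 of 16 clock genes (all genes: 2.46% lower). WNT5A, a signal of connective tissue cells, fell by 1.83 (adjusted p = 0.0102, limma), as 1 of 19 WNT ligands, receptors and antagonists. In that list SFRP2 and FRZB were lower too with 9 birds (all genes: 5.94% lower). WNT5A was no longer called with a pseudocount of 1, where its fold change fell short of the minimum. KCNH6, a potassium channel, LRRC17, a secreted leucine-rich protein, and OC3 completed the large falls, with log2 fold changes of −3.15, −3.17 and −3.12 (adjusted p = 0.00752, 0.0039 and 0.00265). KCNH6 and LRRC17 passed the filter of 0.5 FPKM through the 42-day birds alone. KCNH6, LRRC17 and OC3 were all below 9 FPKM in the birds of 180 and 42 days, and these ages did not overlap. Because they were low, their size depended on the pseudocount: with 1 in place of 0.1 the log2 fold changes of KCNH6, LRRC17 and OC3 were −1.04, −1.65 and −2.07, and that of NETO2 was 1.48 in place of 2.53.

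The machinery of protein synthesis and breakdown showed almost no DEGs. Of 67 cytosolic ribosomal proteins, 66 mitochondrial ribosomal proteins and 31 proteasome subunits, 0 were called with 10 birds, and RPL3 was lower in the 9 birds. Of 24 ubiquitin ligases, FOXO and autophagy genes of muscle, 0 were called with either set of birds. TRIM63, the muscle ubiquitin ligase of wasting, had 618, 612, 341, 234 and 81.6 FPKM at 180 days, against 47.5, 53.3, 82.5, 368 and 1872 FPKM at 42 days, with bird 5 of 42 days the highest of all. Of 29 antioxidant and glutathione enzymes, 0 were called with 10 birds and 2, GPX8 and GSTA4, were lower with 9 birds.

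Most of the remaining lists held few calls. Of 26 genes of calcium handling and CaM kinase, CACNA1S was the single DEG with 10 birds and CAMK2B was lower too with 9. Of 6 satellite cell and myoblast markers, MYF5 and TMEM8C were lower (all genes: 2.46% lower with 10 birds), and the median log2 fold change was −1.54. Both calls are counted above already, among the myogenic regulators and satellite cell genes, and TMEM8C passed the filter through the 42-day birds alone. In 4 of the 6 the 180-day birds lay below the 42-day birds without overlap (all genes: 4.46%). Of 14 endothelial, 5 Schwann cell, 6 melanocyte, 7 smooth muscle and pericyte, 3 cartilage and bone, 5 erythrocyte and 1 epidermal marker tested, 0 were called with 10 birds, as were 0 of the 8 fibre markers, and with 9 birds KCNJ8, of pericytes, CHAD and IBSP were called among them. Their summed levels overlapped between the ages, for example 121 to 200 FPKM at 180 days against 121 to 198 FPKM at 42 days for endothelial markers. Their median log2 fold changes differed: −1.36 for Schwann cell, −1.70 for melanocyte, −0.42 for smooth muscle and pericyte, −0.07 for endothelial, 0.04 for erythrocyte and 1.51 for cartilage and bone markers. Without overlap, 3 of the 5 Schwann cell and 2 of the 6 melanocyte markers were lower, and 0 of the 14 endothelial ones. Summed adipocyte markers did not overlap, with 42.6 to 136 FPKM at 180 days, against 153 to 291 FPKM at 42 days. The lipase gene PNPLA2 made up a large part of these sums, with 10.05 to 71.09 FPKM at 180 days, against 80.17 to 245.63 FPKM at 42 days. Sums without PNPLA2 were not compared. Of the 8 adipocyte markers tested, 3 had a positive and 5 a negative log2 fold change with 10 birds.

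Leaving out bird 1 of 180 days brought out genes of dividing cells. Of 33 cell cycle and DNA replication genes, 0 were called with 10 birds and 9 were lower with 9 birds (all genes: 5.94% lower), and the median log2 fold change moved to −1.07, against −0.53 with 10 birds. SMC2, a condensin subunit, had 6.39 FPKM in bird 1 and 0.10, 0, 0.11 and 0.08 FPKM in the other 180-day birds, against 1.46, 0.60, 1.08, 0.320 and 0.200 FPKM at 42 days. SMC2 averaged under 0.5 FPKM over the 9 birds, so that it passed the filter, set on 10 birds, only through bird 1. CCND1, cyclin D1, had 3.36 FPKM in bird 1 and 0.720, 0.910, 2.54 and 1.43 FPKM in the others, against 5.13, 5.12, 3.87, 3.13 and 3.68 FPKM at 42 days. MCM2, MCM3 and MCM6, of the replicative helicase, PLK1, SMC4, TK1 and HMGB2 were the other DEGs. Bird 1 was high in leukocyte transcripts as well (T cell markers 209 FPKM), and their part in these values was not tested.

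**Figure D4:**
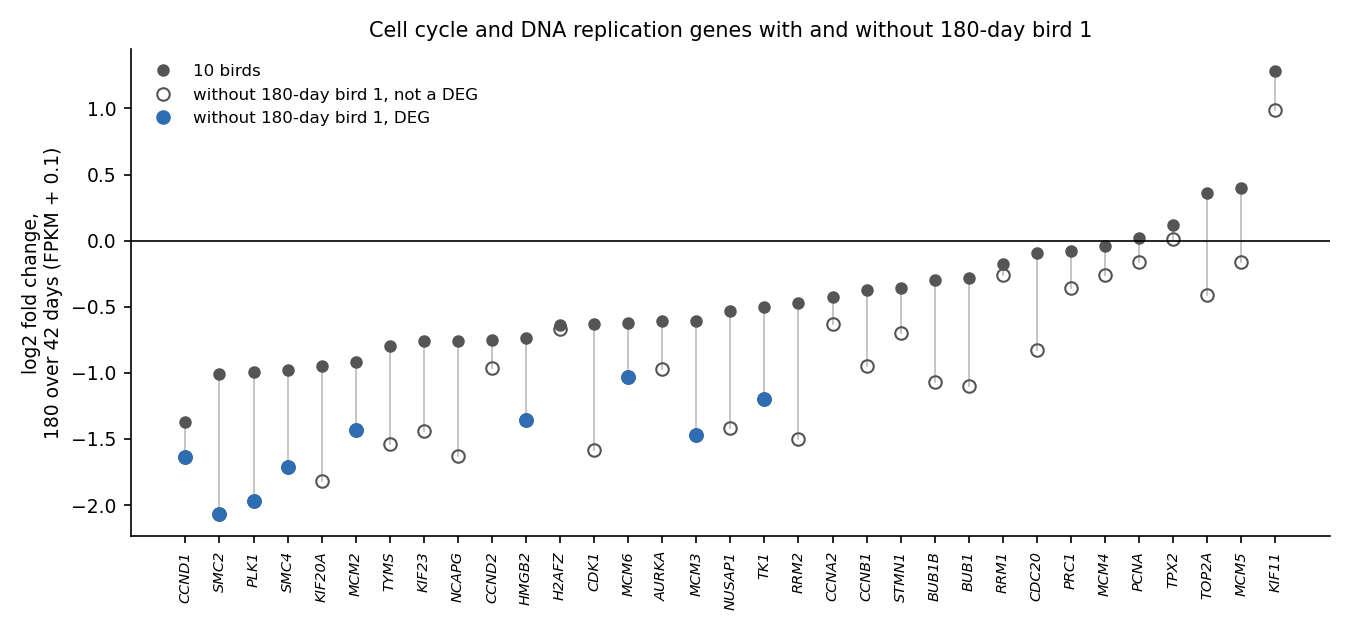
Log2 fold change, 180 over 42 days on the log2(FPKM + 0.1) scale, of each of the 33 cell cycle and DNA replication genes, with all 10 birds (filled grey) and without 180-day bird 1 (open, or blue where a DEG). Each of the 9 blue points lies lower than the grey point of the same gene, and KIF11 is the gene highest above 0.

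Other genes were called lower only without this bird. FN1, fibronectin, had 79.8 FPKM in bird 1 and 3.17, 3.18, 3.04 and 3.74 FPKM in the other 180-day birds, against 18.4, 16.5, 16.9, 10.4 and 6.24 FPKM at 42 days. It was called in the 9 birds (log2 fold change −1.93, adjusted p = 0.00503, limma) and not in the 10 birds (adjusted p = 0.567). CHAD, chondroadherin, a matrix protein of cartilage and tendon, had 21.0 FPKM in bird 1 and 1.95, 2.48, 1.95 and 1.14 FPKM in the others, against 51.9, 22.4, 28.0, 27.2 and 5.72 FPKM at 42 days (9 birds: −3.53, adjusted p = 0.00375). SFRP2 and EMILIN2, secreted proteins of connective tissue, and EPB41L3, a membrane skeleton protein, fell by 2.80, 2.79 and 3.10 in the 9 birds, and each was highest at 180 days in bird 1.

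The remaining genes named from the 9-bird comparison were near the threshold. ALB, albumin, had 0 to 0.1 FPKM at 180 days, against 0.14 to 6.42 FPKM at 42 days, and fell (adjusted p = 0.0496, limma). CLIC5, TMEM74, H2AFJ and IBSP rose by 1.42, 1.49, 1.84 and 2.68 on the log2 scale (limma: adjusted p between 0.0301 and 0.0425). None of these 5 genes was called with 10 birds.

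The leukocyte markers were almost without calls in either comparison. CD3E, a T cell receptor component, had 36.9 FPKM in bird 1 and 1.72, 2.79, 2.58 and 2.13 FPKM in the other 180-day birds, against 1.93, 1.86, 0.840, 0.770 and 1.28 FPKM at 42 days (adjusted p = 0.259 with 10 birds and 0.125 with 9, limma). JCHAIN, of secreted antibodies, had 487 FPKM in bird 1, against 0.98 to 5.39 FPKM in its mates and 0.44 to 12.6 FPKM at 42 days. LYZ, lysozyme, had 121 FPKM in bird 1, against 0 to 1.57 FPKM in its mates and 0 to 0.77 FPKM at 42 days. Of 18 T cell, 10 B and plasma cell, 14 myeloid and 8 pan-leukocyte markers, 0 were called with 10 birds, and C1QC and MARCO, of macrophages, were lower in the 9 birds. With 9 birds 12 of the 14 myeloid markers had a negative log2 fold change, with a median of −1.03 (all genes: −0.23). The medians of T cell, B and plasma cell and pan-leukocyte markers were 0.24, −0.10 and −0.36. Without 180-day bird 1 and 42-day bird 5 together, 6 myeloid markers were lower (all genes: 845), and 4 with array weights (all genes: 828).

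At 126 days the DEGs mostly stood at intermediate levels. In 287 of the 342 DEGs the median at 126 days lay between the medians of 42 and 180 days, a description of genes chosen on those outer ages. COL3A1 had medians of 321, 79.4 and 23.6 FPKM at 42, 126 and 180 days. CHRNA1 had medians of 5.76, 0.730 and 1.20 FPKM and TPM2 of 177, 12.9 and 13.7 FPKM at these ages, so that both were low at 126 days already. MGP had medians of 46.5, 33.8 and 2.76 FPKM, HSPB7 of 36.7, 31.1 and 187 FPKM, and MB of 2.08, 3.39 and 31.6 FPKM, so that these 3 were nearer at 126 days to their levels at 42 days.

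Between 180 and 126 days, which share the 180-day birds with the comparison above, 106 of 11515 genes (0.921%) were DEGs, and 376 (3.27%) without 180-day bird 1. Bird 1 of 126 days was also rich in leukocyte and fibroblast transcripts (T cell markers 60.7 FPKM, against 20.8 to 24.7 FPKM in its mates), and without it 67 genes were DEGs. MGP, OC3 and DPT were lower at 180 than at 126 days with and without either bird (MGP: log2 fold change −3.38, adjusted p = 0.0221, limma). MB (3.06, adjusted p = 0.047), HSPB7 (2.26, 0.0453), FAM13A (1.27, 0.0472) and TMEM63C (2.19, 0.0307) were higher at 180 than at 126 days, but missed the threshold without 126-day bird 1 (log2 fold changes 3.05, 1.93, 1.33 and 2.21, adjusted p = 0.0811, 0.0693, 0.0693 and 0.0548). Without 180-day bird 1, and without both birds, all 4 were called (adjusted p up to 0.043 and 0.049). HSPB8, TPM2 and CHRNA1 were not called, with log2 fold changes of 0.32, −0.35 and 0.56 (adjusted p = 0.834, 0.682 and 0.42).

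**Figure D5:**
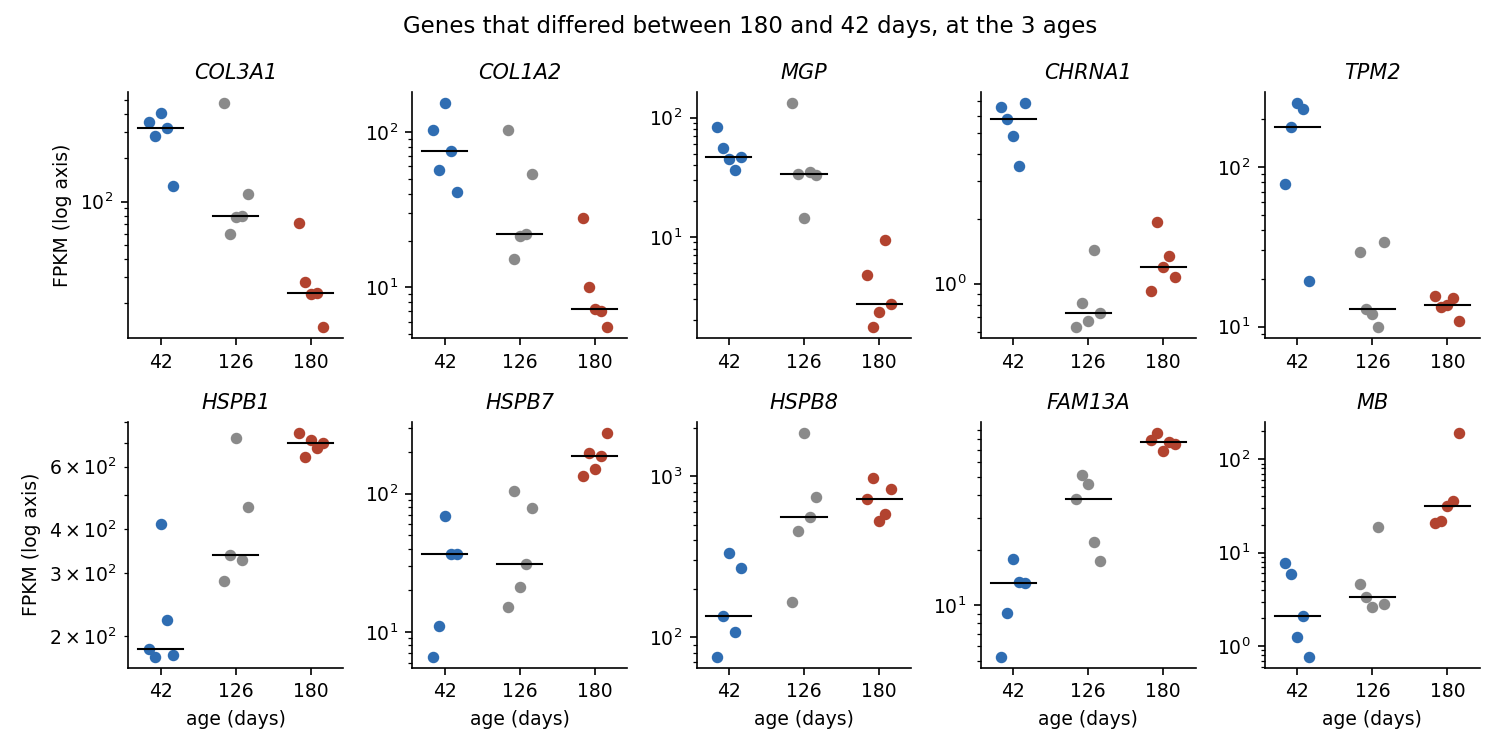
FPKM (log axes) of 10 genes that differed between 180 and 42 days, in each of the 5 birds at 42, 126 and 180 days, with a line at the median. CHRNA1 and TPM2 were low at 126 days already, while MGP, HSPB7 and MB at 126 days lay near their levels at 42 days (medians of 33.8, 31.1 and 3.39 FPKM).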

How the data were processed

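Poly-A RNA of breast muscle was made into paired-end libraries (VAHTS Universal V6 kit, NovaSeq). Per the submitters' processing notes and the study's methods, reads were trimmed with Cutadapt, aligned with HISAT2 2.2.1 to the chicken genome (build not given in the sources used here) and assembled with StringTie 2.1.6. The authors deposited FPKM per entry with 2 decimals, not counts, so that depth is unknown and only differences between birds, 1 library each, measure error. The deposited table has 48836 entries under 23599 names; FPKM were summed by name, which joins entries that share a symbol (7787 tested genes have several).

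Genes averaging 0.5 FPKM or more over the 10 birds (11692, of which 2104 have only an Ensembl identifier) were tested with limma 3.58.1 in R 4.3.3 (trend, log2(FPKM + 0.1), Benjamini-Hochberg), since the count model of the study cannot be run on FPKM. DEGs had adjusted p values under 0.05 and log2 fold changes of 1 or more in size. The same genes were tested with 9 birds, without a new filter. Nothing in the labels links equal bird numbers across ages.

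Members and lists were chosen with earlier results of these data known, and lists are described by counts and medians only. Ribosomal protein kinases were left out of the ribosomal list. Genes were named by size (10 rises and 10 falls without overlap, called with and without 180-day bird 1), as leading members of each list (up to 4), as the leading 5 rises and 5 falls called only in the 9 birds, and as the 2 highest genes of each leukocyte list. Not every gene chosen from a list is given above, and of the highest leukocyte genes only CD3E, JCHAIN and LYZ are. Those named by size or from the 9 birds had to carry a gene symbol rather than a serial identifier. Of the DEGs with 10 birds, 42 of 54 higher and 241 of 288 lower ones carried a symbol. Other list members were named for their role after their values were seen. Alternatives were another pseudocount, other filters, scalings, entries, designs and bird weights, and leaving out each bird. One list member is not reported here.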

Additional observations from a re-analysis of the deposited data

Results flagged for a closer look

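Of 158 groups of 5 birds examined, formed by the named genes and the leukocyte and other marker sums at 180 or 42 days, 29 held a bird far from the other 4 by Dixon's criterion at the 95% level, which chance alone meets in about 1 of 20 groups of normal values. That rate is no measure for this count, since FPKM are skewed and many of these genes and sums were chosen because bird 1 of 180 days departed in them. Leukocyte genes not given above, such as CTSS, CXCR4, LAPTM5 and LCP1, were not among the groups examined. Bird 1 of 180 days accounted for 16 of the 29 groups. It was the highest of its age for summed T cell (209 FPKM), B and plasma cell (607 FPKM), myeloid (594 FPKM) and pan-leukocyte markers (407 FPKM), and for CD3E (36.9 FPKM), JCHAIN (487 FPKM) and LYZ (121 FPKM). It was also the highest for the connective tissue genes COL3A1 (71.7 FPKM), COL1A2 (27.9 FPKM), COL1A1 (19.7 FPKM), COL5A2 (9.57 FPKM), CHAD (21.0 FPKM), SFRP2 (2.06 FPKM) and EMILIN2 (8.85 FPKM), and for EPB41L3 (8.84 FPKM) and the RNA-binding protein gene IGF2BP3 (2.03 FPKM).

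Other birds of 180 days stood apart in single genes. Bird 5 had 193 FPKM of MB, 22.4 FPKM of ACTC1 and 14.7 FPKM of IBSP, the bone sialoprotein gene. Bird 2 had 1.00 FPKM of MEGF10 and 0.25 FPKM of COL20A1, and bird 3 had 0.03 FPKM of CA3B, a gene listed at 0 in its 4 mates.

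Among the 42-day birds, bird 3 was the highest for HSPB1 (413 FPKM), PROSER2 (17.6 FPKM) and ALB (6.42 FPKM). Bird 5 was the highest for TRIM63 (1870 FPKM, rounded) and EPB41L3 (31.0 FPKM), bird 4 for MYBPC3 (3.09 FPKM) and bird 1 for FST (4.26 FPKM).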

How the results depend on the processing

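No gene called with 10 birds was called in the opposite direction under any alternative run. Of the 342 DEGs (54 higher, 288 lower), 238 were DEGs with a pseudocount of 1, 218 of 230 DEGs under quantile normalization (54 higher, 176 lower) were shared, and 157 of 166 with the highest entry of each name only (25 higher, 141 lower). With array weights 958 genes were called (130 higher, 828 lower), and without 180-day bird 1 and 42-day bird 5 together, an alternative chosen after seeing the data, 950 were (105 higher, 845 lower). Leaving out single birds gave 179 (without 42-day bird 2) to 781 DEGs (without 180-day bird 1), of which 31 to 86 were higher and 144 to 695 lower. Bird numbers did not pair the samples (correlations of deviations between −0.11 and 0.144), and the fit with the replicate block gave 307 DEGs with 10 birds. Without 180-day bird 1 the block fit also left out 42-day bird 1, and it gave 318 DEGs. Among the named genes, the block ended the calls of HLF, ACTC1, POSTN, IGF2BP3 and ND2. Other losses among them were those of ACTC1, CACNA1S, CHRNA1, COL1A1, COL20A1, DPT, FST, HSPA2, IGF2BP3, MYF5, ND2, NETO2 and TMEM63C with the highest entry only, of DPT, HSPA2, IGF2BP1, IGFBP3, MYF5 and ND2 under quantile normalization, of DPT, FST, HSPA2, IGF2BP3 and ND2 without the filter, of DPT and WNT5A with a pseudocount of 1, of DPT with a mean of at least 1 FPKM, of HSPA2 with 3 ages in one fit and of ND2 with array weights. Tested genes that averaged under 0.5 FPKM at 180 days passed the filter only through the 42-day birds. Among them were CA3B, COL20A1, KCNH6, LRRC17, MYBPC3, PENK, SARDH, TMEM8C and WNT5A. CA3B, KCNH6, MYBPC3 and TMEM8C averaged under 1 FPKM, so that they were not tested with a mean of at least 1 FPKM. KCNH6 was also not tested with the highest entry only. ACTC1, DPT, HSPA2 and ND2 have 1 entry each, so that their own values were unchanged in that run, and the values of other genes in the fit differed. Quantile normalization gave 406 DEGs in the 9 birds. Between 180 and 126 days, DEGs numbered 376 without 180-day bird 1, 67 without 126-day bird 1 and 355 without both, alternatives chosen after seeing the data. The cause of these differences was not tested. FPKM give no depth, so that values under 1 FPKM carry an unknown counting error. The promoter motif description was not run, since no sequence table was used here.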

Other observations

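Gene families outside the lists above were looked up after their values had been seen, and their counts are descriptions. Over all genes tested, 2.46% were lower and 0.462% higher with 10 birds, and 5.94% were lower with 9 birds. Among the C1q and TNF related proteins, secreted relatives of adiponectin, 5 of 8 tested were lower at 180 days, and 6 with 9 birds. C1QTNF2 had 0.900, 0.990, 1.24, 0.560 and 0.19 FPKM at 180 days, against 10.4, 9.62, 6.87, 5.17 and 2.94 FPKM at 42 days, without overlap (log2 fold change −3.06, adjusted p = 0.00501, limma). Of the ADAMTS proteases and ADAMTS-like proteins, which process the matrix, 8 of 15 were lower with 10 birds and 10 with 9 birds. ADAMTSL2 had 1.45 to 7.72 FPKM at 180 days, against 16.9 to 43.6 FPKM at 42 days. Of class 3 semaphorins, guidance signals for axons and vessels, 3 of 6 were lower. SEMA3A had 0.07 to 0.40 FPKM at 180 days and 1.17 to 1.58 FPKM at 42 days. LAMA4, a laminin chain of vessels and fibres that was not in the lists, had 3.35 to 4.79 FPKM at 180 days, against 7.78 to 23.1 FPKM at 42 days.

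Enzymes around methionine and sarcosine gave 4 lower genes of 17 (all genes: 2.46% lower). Besides SARDH and GAMT these were AHCY, which hydrolyses S-adenosylhomocysteine, with 15.3, 11.5, 10.5, 13.8 and 18.3 FPKM at 180 days, against 50.4, 30.2, 37.0, 29.5 and 59.6 FPKM at 42 days (log2 fold change −1.54, adjusted p = 0.00501, limma), and MAT1A (−1.50, adjusted p = 0.0454). AHCY did not overlap between the ages, while MAT1A did. Of 9 carbonic anhydrases 3 were lower: CA3B, CA8 and CA9.

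CISH, a feedback inhibitor of growth hormone and cytokine signalling through STAT5, was the single DEG of 8 genes of that pathway (all genes: 2.46% lower). It had 16.2, 8.29, 3.52, 3.31 and 4.38 FPKM at 180 days, against 83.5, 44.6, 33.3, 46.9 and 16.1 FPKM at 42 days (log2 fold change −2.72, adjusted p = 0.01, limma). Bird 1 of 180 days and bird 5 of 42 days overlapped. Of 18 histone genes 4 were higher at 180 days and 0 lower (all genes: 0.462% higher). With 9 birds 5 were higher and 1 lower (all genes: 0.736% and 5.94%). The lower gene was H3F3B (log2 fold change −1.06, adjusted p = 0.0265, limma). H2AFZ was lower without overlap of the ages but was not called (−0.64 with 10 birds and −0.67 with 9). Among the higher ones was HIST1H2B7, with 7.80, 8.14, 9.77, 10.3 and 7.72 FPKM at 180 days, against 3.55, 5.76, 2.84, 3.44 and 2.29 FPKM at 42 days. Replication-dependent histone transcripts mostly lack poly-A tails and near-identical copies share reads, so that these values are uncertain.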
